A study of Mus musculus with 9 samples.

Results

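The genes described here build or use the microtubule transport systems of the spermatid. They were chosen by name, as the rows of the deposited table whose gene symbol is in a list of 39 genes, and all 39 were found among 38674 genes. By role they are 8 genes of the manchette and of head shaping, 4 genes of the central pair and tail, 3 katanins, 12 genes of intraflagellar transport complex B (IFT-B), 4 genes of complex A (IFT-A) and 8 genes of the BBSome and its recruiting GTPase Arl6.

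While a spermatid elongates, a sleeve of microtubules called the manchette forms around its nucleus. Motor proteins move cargo along these microtubules toward the base of the tail, mutants in which the sleeve is faulty often have misshapen heads, and it is taken apart before the sperm is released. Katanins sever microtubules and take part in the removal of the manchette. Intraflagellar transport carries cargo along the axoneme, with IFT-B linked to kinesin-driven outward movement and IFT-A to dynein-driven return, and the BBSome is an adaptor for membrane cargo of cilia.

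Testes of male C57BL/6 mice were compared between 3 genotypes with 3 mice each: wild type (Pfn3+/+, called WT), heterozygous (Pfn3+/-, Het) and homozygous mutant (Pfn3-/-, KO). Pfn3 encodes a testis profilin, an actin regulator of the acroplaxome and manchette region. Its alleles are constitutive CRISPR/Cas9 deletions in C57BL/6, so every diploid cell of a Het or KO mouse carries the deletion. Of the haploid spermatids of a Het mouse only a part carries it. According to the study's methods the mice were sexually mature, and several deletion lines were made, of which the labels do not name the one sequenced. Since the study examined manchette shape by microscopy, the comparison asks whether transcripts of manchette and transport genes differed between genotypes. Values are normalized counts, that is gene counts from 3′ end reads divided by 1 size factor per mouse. They are given for replicates 1, 2 and 3 in that order. The labels number the mice within each genotype and do not say whether they were littermates.

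The libraries held 3375546 to 4287335 reads on genes, and 3 reads, taken as the limit of detection, were worth between 2.58 and 3.71 in normalized units, a limit that allows for counting error alone. Transcripts of Pfn3 were at 592, 383 and 373 normalized counts in WT, 136, 339 and 326 in Het and 74.7, 215 and 279 in KO mice. KO mice were all below all WT mice, with a log2 fold change of -1.41 (SE 0.52, adjusted p = 0.610, limma). Reads from the 3′ end of the transcript do not have to come from the deleted bases, so they do not check the genotype. WT replicate 1 stood apart. For 13 of the 38 manchette and transport genes that passed the filter on low values, it was under 0.5 times both other WT mice. This was a larger share than the 19.1% over all genes averaging 10 or more. Het replicate 1 was under 0.5 times both other Het mice for 6 of 38, against 9.30% of all genes. For many of the genes described, estimates are given with and without the mouse that moved them.

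Transcripts of 6 of the 39 genes averaged over 1000 normalized counts in WT testis, 21 averaged 100 to 1000, 11 averaged 10 to 100, and Ccdc42 was lowest. The median over the 38 genes that passed the filter was 209 normalized counts, above the median of 70.0 over all genes tested, and 32 of the 38 lay above the latter. The 39 genes lie on 17 chromosomes of GRCm38, with 5 on chromosome 2 and 0 on X or Y, where 3.78% of all genes tested lie. Since each transcript gives reads from its 3′ end, values were not divided by length, and the order between genes is approximate.

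Meig1, whose product takes part in cargo transport on the manchette, had the highest level, with 9417, 3949 and 3288 normalized counts in WT mice. It was followed by the Hook1-binding manchette gene Ccdc181 at a WT mean of 2724 ± 913 (SD, n = 3), the central pair gene Spag17 at 2331 ± 329.7, and Ift74 at 1616 ± 183, which with Ift81 forms the tubulin-binding part of IFT-B. Of the 38 pairs of neighbours in the order of WT means, 36 overlapped between mice. The exceptions were Spag17 over Ift74 and Ttc8 over Ccdc42, so ranks between close genes are not resolved by 3 mice. Median WT means were 579 for manchette genes, 441 for central pair genes, 231 for katanins, 223 for IFT-B, 102 for IFT-A and 74.6 for the BBSome genes. Within IFT-B the WT means ran from 84.7 (Traf3ip1) to 1616 (Ift74) and within the BBSome set from 16.3 (Ttc8) to 482 (Bbs5), although these products of each set assemble into 1 complex.

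**Figure D1:**
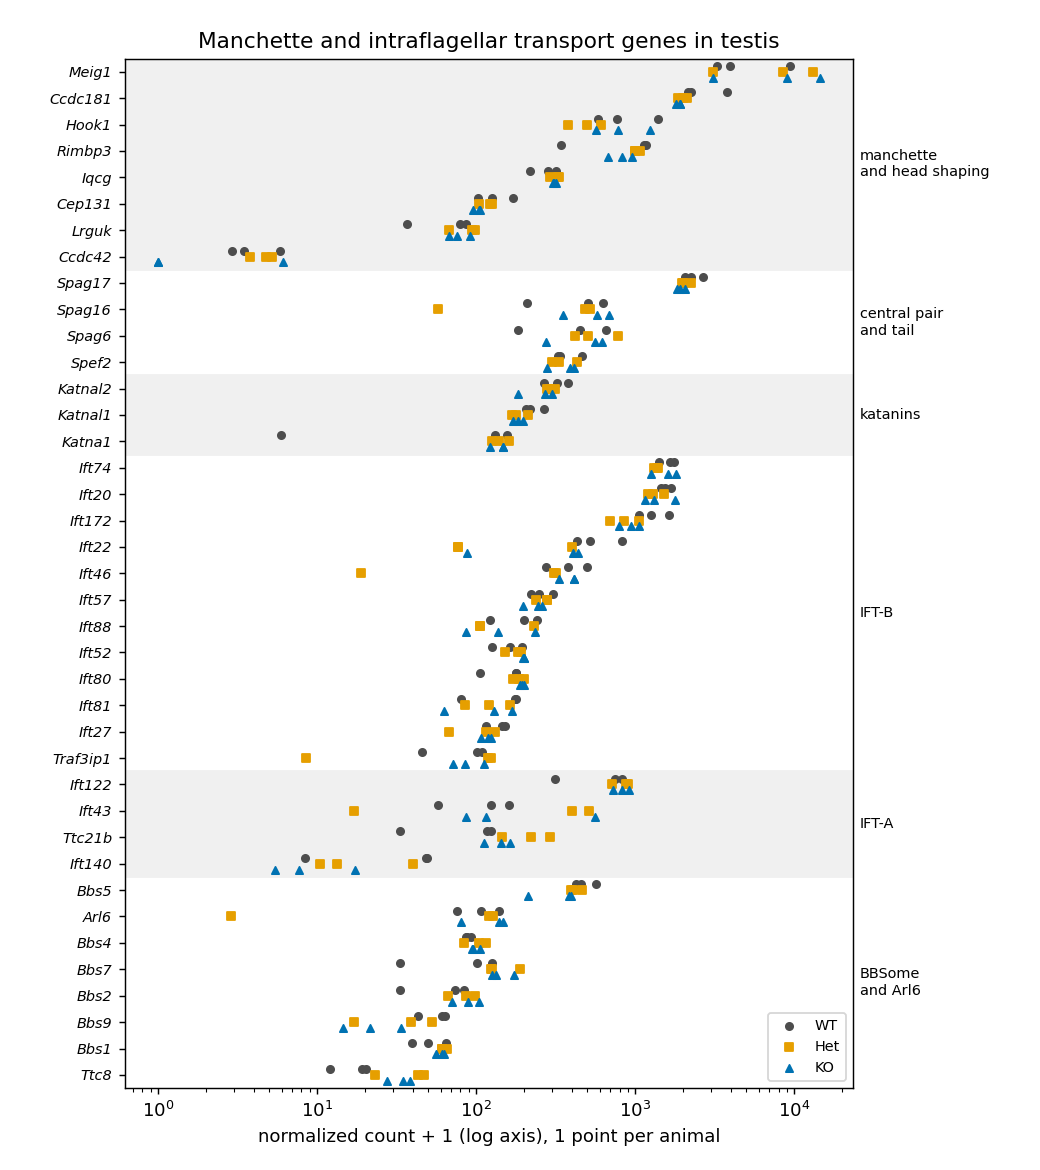
Normalized count plus 1 of each of the 39 genes (log axis) with 1 point per mouse: grey circles are WT, orange squares Het and blue triangles KO. Genes are grouped by role and ordered by level, from Meig1 with a WT mean of 5551 to Ccdc42 at 3.08, and isolated points to the left are single mice such as WT replicate 1 for Katna1 and Het replicate 1 for Arl6.

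Ccdc42, a gene needed for tail formation, was near the limit of detection. Its reads numbered 2, 5 and 2 in WT, 4, 3 and 4 in Het and 6, 0 and 0 in KO mice. With at most 5.15 normalized counts in any mouse it did not pass the filter on low values. In 5 mice it was at or under 3 reads, and no change in either direction was detectable at this depth.

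RFX transcription factors bind the X-box, a promoter element found in many ciliary genes, and the promoters were searched for it as a feature that the choice of genes did not use. RefSeq promoter windows (GRCm38.p6) matched 33 of the 39 genes. The 6 bases GTTGCC, read on either strand, occurred in the 250 bases before the start in 10 of 36 windows of these genes (27.8%) and in 10.4% of all 32851 windows. A longer pattern modelled on the X-box was GTNNCC followed after any 3 bases by GNNAC, on either strand. Only this spacing was searched, and matches with another spacing were not counted. The longer pattern occurred in 6 of the 36 windows (16.7%) and in 3.81% of all windows. The stretches below are those where both patterns overlap, printed 5′ to 3′ on the strand of the gene, with the 6 bases GTTGCC or their complement GGCAAC in capitals.
Bbs7, chr3:36613493-36613522, minus strand: gaatgcgccccgGTTGCCttggaaaccggc
Ift57, chr16:49699195-49699224, plus strand: gaggcgggtctgGTTGCCgtggtgaccggc
Iqcg, chr16:33056188-33056217, minus strand: cttgcgcgacgcGTTGCCatagctaccgat
Lrguk, chr6:34029426-34029447, plus strand: gtcagtctcctaGGCAACgcgt
Spag16, chr1:69826855-69826884, plus strand: actaggcaacgcGTTGCCgtagtaactgcg
The capitals begin 121 bases before the annotated start of Bbs7, 87 before that of Ift57, 19 before that of Iqcg, 10 before that of Lrguk and 103 before that of Spag16. The stretch of Spag16 holds a second match, ggcaac, in lower case to the left of the capitals. A match describes letters in the window and is not evidence that a factor binds there. None of these 5 genes had an unadjusted p under 0.05 in any of the comparisons that follow. Ift22, which held the longer pattern without the 6 bases, reached it for Het against WT (unadjusted p = 0.0223, adjusted p = 0.779, limma).

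Between KO and WT mice, limma on log2(normalized count + 1) called 0 of the 38 tested genes at an adjusted p under 0.05 and a log2 fold change over 1.5, and DESeq2 and edgeR on the recovered reads also called 0. Over all 14223 genes tested, limma called 0.0352% and edgeR called 5, while DESeq2 called 109 of 16737. An unadjusted p under 0.05 was reached by 2 of the 38 (5.26%), Bbs9 and Ttc8, against 8.07% of all genes; edgeR gave the same 2 and DESeq2 also Ift140. Estimates were higher in KO mice for 20 genes and lower for 18, with 51.4% of all genes higher, and the median log2 fold change was 0.06, against 0.02 over all genes.

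The size of a difference that remains possible was given by the 95% intervals of the log2 fold changes. The interval lay within -1 and 1 for 13 of the 38 genes and within -1.5 and 1.5 for 26. For the other 12 it reached beyond 1.5 in size, so with 3 mice per genotype a difference as large as the threshold lies within their error. The narrowest included Spag17, from -0.65 to 0.15, Iqcg, from -0.30 to 0.70, and Bbs4, from -0.30 to 0.60. The widest was that of Katna1, from -1.53 to 4.49.

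Bbs9, a scaffold subunit of the BBSome, was at 42.1, 59.8 and 62.8 normalized counts in WT, 16.1, 52.1 and 38.1 in Het and 32.6, 13.5 and 20.6 in KO mice. All KO mice were below all WT mice, and the Het mice overlapped both. KO against WT gave a log2 fold change of -1.33 (SE 0.38, unadjusted p = 0.0123, adjusted p = 0.610, limma). It stayed between -1.64 and -1.03 with any 1 mouse left out.

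Ttc8, another BBSome subunit, was at 11.1, 18.3 and 19.3 normalized counts in WT, 46.3, 22.3 and 42.3 in Het and 26.6, 33.9 and 37.5 in KO mice. Every Het and KO mouse was above every WT mouse. The estimate for KO against WT was 0.99 on the log2 scale (SE 0.33, unadjusted p = 0.0241, adjusted p = 0.610, limma). The estimates of these subunits of 1 complex were opposite in sign, and neither passed the threshold.

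The remaining BBSome genes had estimates between -0.58 and 0.92. Bbs5, which binds membrane lipids, was at 568, 423 and 456 normalized counts in WT, 396, 407 and 461 in Het and 383, 213 and 397 in KO mice. KO mice lay below WT mice without overlap, by -0.58 on the log2 scale (SE 0.30, adjusted p = 0.616, limma), and by -0.29 (SE 0.21) without KO replicate 2. Bbs4 was higher in KO mice without overlap, by 0.15 (SE 0.19), and Bbs1, Bbs2, Bbs7 and Arl6 overlapped between KO and WT mice. The highest of these estimates, 0.92 for Bbs7 (SE 0.52), was 0.33 (SE 0.23) without WT replicate 1.

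Among the IFT-A genes, Ift140, a core subunit, had the lowest estimate of all 38 genes. It was at 7.43, 48.2 and 47.3 normalized counts in WT, 12.3, 39.1 and 9.52 in Het and 16.3, 6.77 and 4.47 in KO mice. WT replicate 1 was in the range of the KO mice while the other WT mice were above all of them. With all mice the log2 fold change was -1.59 (SE 0.84, unadjusted p = 0.105, adjusted p = 0.620, limma). Without WT replicate 1 it was -2.43 (SE 0.55, unadjusted p = 0.00592, adjusted p = 0.394, limma). It was -1.48 (SE 1.02) without KO replicate 2 and -1.23 (SE 0.95) without KO replicate 3. With any other mouse left out, Ift140 did not pass the filter on low values. The values of 6.77 and 4.47 in KO mice and 7.43 in WT replicate 1 were not far above the limit of detection.

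Ttc21b, an IFT-A subunit also known as Ift139, was at 32.2, 117 and 124 normalized counts in WT, 291, 221 and 144 in Het and 162, 143 and 112 in KO mice. All Het mice were above all WT mice, and the KO mice overlapped with WT. KO against WT gave a log2 fold change of 0.82 (SE 0.54, adjusted p = 0.643, limma), and 0.19 (SE 0.22) without WT replicate 1.

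Ift122, with the highest IFT-A level, was at 312, 746 and 828 normalized counts in WT, 899, 879 and 712 in Het and 727, 921 and 834 in KO mice. WT replicate 1 was the lowest of all mice, and the other 8 overlapped. The estimate for KO against WT was 0.51 (SE 0.39), and 0.07 (SE 0.17) without WT replicate 1. Ift43, a small IFT-A subunit, was at 57.0, 160.1 and 124 in WT, 16.1, 403 and 514 in Het and 114, 556 and 85.8 in KO mice. Het replicates 2 and 3 and KO replicate 2 were far above all other mice, and Het replicate 1 was the lowest. The log2 fold change of KO against WT was 0.75 (SE 0.78), and -0.07 (SE 0.50) without KO replicate 2.

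**Figure D2:**
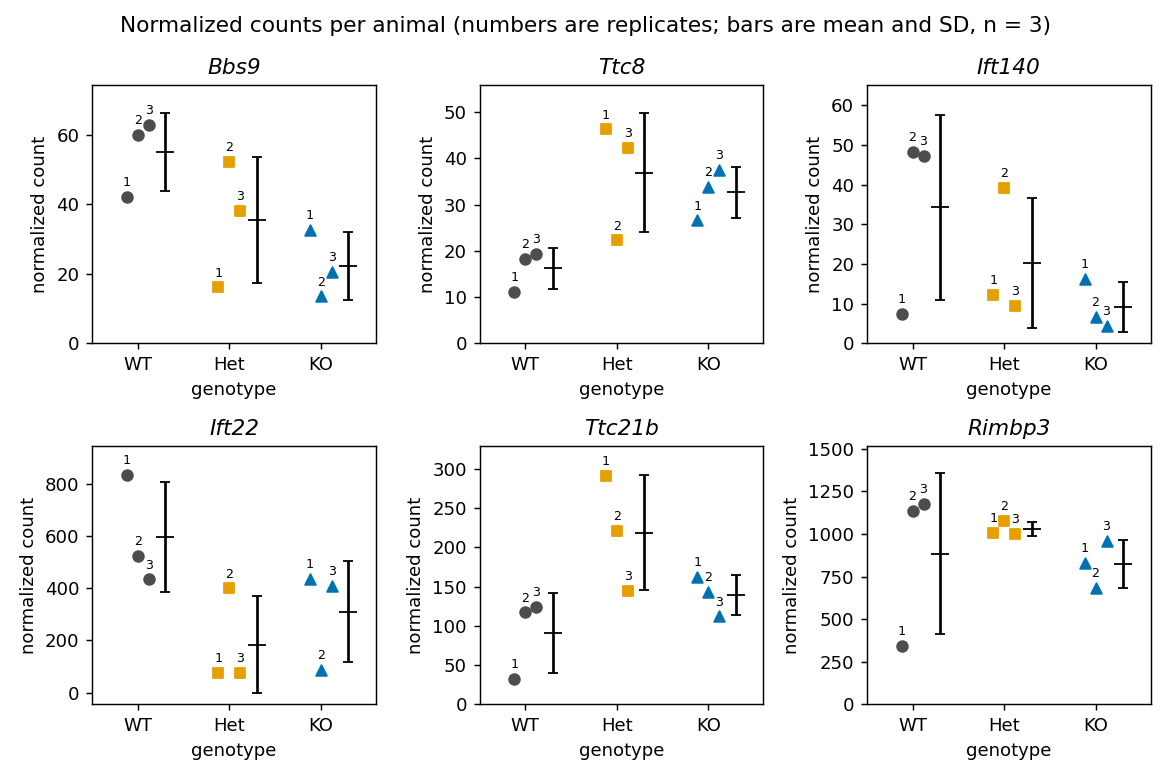
Normalized counts of Bbs9, Ttc8, Ift140, Ift22, Ttc21b and Rimbp3 (linear axis) with 1 numbered point per mouse and bars for the mean and SD of 3 mice in WT (grey), Het (orange) and KO (blue). KO mice lie below all WT mice for Bbs9 and above all of them for Ttc8, while WT replicate 1 lies apart from the other WT mice for Ift140 and Rimbp3.

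Of the 12 IFT-B genes, 8 had lower and 4 higher estimates in KO mice, with a median of -0.15, 0 called and 0 with an unadjusted p under 0.05. Ift74 was at 1768, 1412 and 1667 normalized counts in WT, 1381, 1315 and 1399 in Het and 1818, 1262 and 1613 in KO mice. KO and WT mice covered the same range, and the log2 fold change was -0.06 (95% interval -0.54 to 0.42).

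Ift22, a small GTPase-like subunit, had the lowest IFT-B estimate. It was at 834, 523 and 434 normalized counts in WT, 76.5, 399 and 76.2 in Het and 436, 87.1 and 408 in KO mice. Het replicates 1 and 3 and KO replicate 2 formed a low group at 76.2 to 87.1, and all other mice were at 399 or above. The log2 fold change of KO against WT was -1.20 (SE 0.66, unadjusted p = 0.119, adjusted p = 0.629, limma), and -0.44 (SE 0.33) without KO replicate 2.

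Ift80, a subunit named in skeletal ciliopathies, had the highest IFT-B estimate, at 105, 179 and 179 normalized counts in WT, 200.3, 169 and 185 in Het and 199, 189.6 and 194 in KO mice. KO mice were above WT mice without overlap, by 0.37 (SE 0.26, adjusted p = 0.647, limma), and by 0.12 (SE 0.15) without WT replicate 1. Ift52, a core IFT-B subunit, was also higher without overlap, with a WT mean of 161 ± 33.9 (SD, n = 3) and a KO mean of 199 ± 1.33; its log2 fold change was 0.32 (SE 0.22), and 0.16 (SE 0.16) without WT replicate 1.

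Katna1, the catalytic katanin subunit, gave the highest estimate of the 38 genes and rested on 1 mouse. It was at 4.95, 155 and 130.3 normalized counts in WT, 138, 161 and 126 in Het and 147, 122 and 146 in KO mice. All mice but WT replicate 1 lay between 122 and 161. The log2 fold change of KO against WT was 1.48 (SE 1.24, adjusted p = 0.665, limma) with all mice and -0.05 (SE 0.19) without WT replicate 1.

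Katnal2, a katanin-like gene of the manchette, was at 324, 379 and 268 in WT, 279.7, 314 and 293 in Het and 301, 183 and 269.9 in KO mice. KO replicate 2 was the lowest and the groups overlapped, with a log2 fold change of -0.38 (SE 0.26), and -0.17 (SE 0.23) without that mouse. Katnal1, known for its role in Sertoli cells, was lower in KO mice without overlap, by -0.33 (SE 0.20, adjusted p = 0.637, limma), and by -0.21 (SE 0.22) without WT replicate 3.

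Of the 7 tested manchette genes, 4 had higher and 3 lower estimates in KO mice, between -0.48 and 0.58. Ccdc181 was at 3777, 2247 and 2148 normalized counts in WT, 2115, 1998 and 1871 in Het and 1921, 1815 and 1915 in KO mice. WT mice were above all others, with the widest gap in WT replicate 1. The log2 fold change of KO against WT was -0.48 (SE 0.25, adjusted p = 0.616, limma), and -0.22 (SE 0.12) without that mouse.

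Meig1 was at 8506, 3075 and 13217 normalized counts in Het and 3113, 9012 and 14526 in KO mice, beside the WT values given above. The mice of each genotype spread widely and the genotypes overlapped, and the log2 fold change was 0.58 (SE 0.66). With 1 mouse left out it ranged from 0.09 without KO replicate 3 to 1.20 without KO replicate 1. Hook1, the gene of a mouse mutant with misshapen sperm heads, had KO and WT means of 864 and 914 (log2 fold change -0.06, SE 0.42). Its partner Rimbp3 was at 340.5, 1137 and 1175 in WT, 1007, 1075 and 1001 in Het and 831, 681 and 959.9 in KO mice. Without WT replicate 1, KO mice were below both other WT mice, with a log2 fold change of -0.50 (SE 0.19, unadjusted p = 0.0422, adjusted p = 0.558, limma), against 0.08 (SE 0.50) with all mice.

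The 4 central pair genes had estimates between -0.25 and 0.35. Spag17 was at 2248, 2050.0 and 2694 normalized counts in WT, 1969, 2239 and 2018 in Het and 1933, 1836 and 2076 in KO mice. The groups overlapped by a small margin, and the log2 fold change was -0.25 (SE 0.16, adjusted p = 0.643, limma). Spef2, a binding partner of Ift20, was at 462, 336 and 327 in WT, 429.9, 299.8 and 330.2 in Het and 411, 279 and 388 in KO mice, with full overlap.

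**Figure D3:**
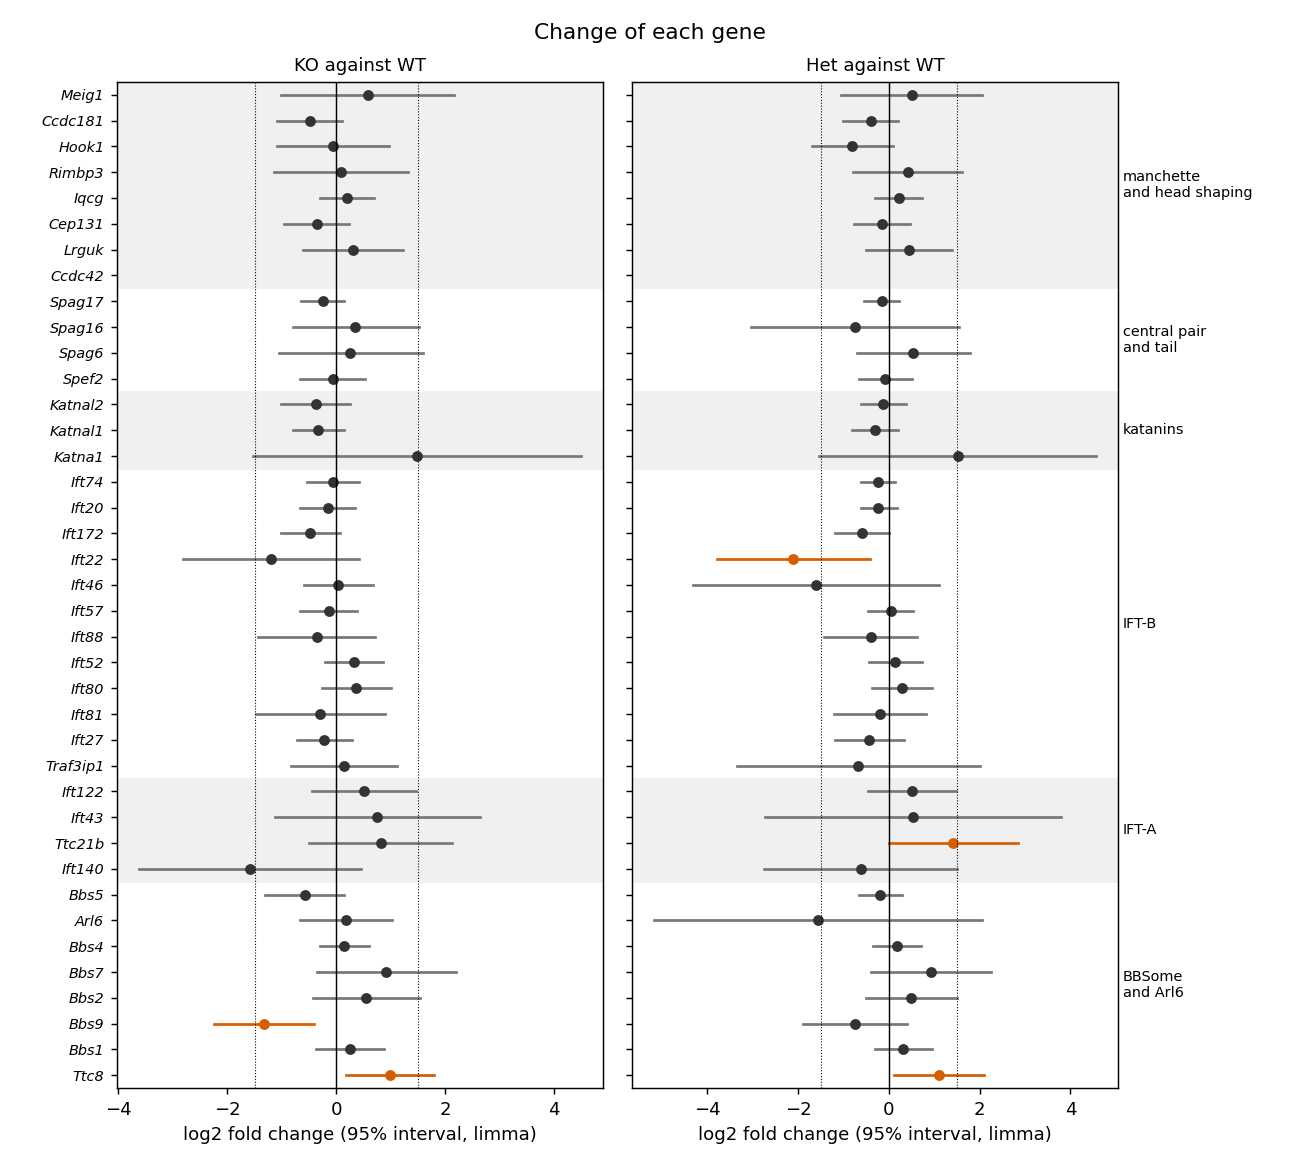
Log2 fold change of each tested gene with its 95% interval (limma), KO against WT on the left and Het against WT on the right, with dotted lines at -1.5 and 1.5. Orange marks an unadjusted p under 0.05, which is reached by Bbs9 and Ttc8 on the left and by Ift22, Ttc21b and Ttc8 on the right; Ccdc42 was not tested.

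Over the 38 genes, KO and WT mice did not overlap for 8 (21.1%): Ift52, Ift80, Bbs4 and Ttc8 were higher and Bbs5, Ccdc181, Katnal1 and Bbs9 lower in KO mice. Over all genes tested, 9.41% were higher and 10.5% lower without overlap, so the share of these genes is near the background. Leaving out WT replicate 1 gave 15 higher and 23 lower estimates, a median of -0.10 (-0.03 over all genes) and 4 genes with an unadjusted p under 0.05, Bbs9, Ift140, Rimbp3 and Ttc8, against 8.88% of all genes. Of the 38, 0 were called, while 49 of all 13964 genes were called.

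Between Het and WT mice, limma called 0 of the 38 genes, as did DESeq2 and edgeR. Over all 14216 genes tested, limma called 0% and edgeR called 0, while DESeq2 called 32 of 17396. The WT mice are those of the previous comparison. An unadjusted p under 0.05 was reached by 3 (7.89%), against 3.34% of all genes, with 4 by DESeq2 and 1 by edgeR. The median log2 fold change was -0.14, against 0.01 over all genes, and the 95% interval lay within -1 and 1 for 14 genes. Estimates were higher in Het mice for 17 genes and lower for 21, with 50.5% of all genes higher. The genotypes did not overlap for 5 genes (13.2%), Ttc21b and Ttc8 higher and Ccdc181, Ift74 and Ift22 lower in Het mice, against 6.76% higher and 6.49% lower over all genes.

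Of the genes with the lowest p, Ift22 was lower in Het mice by -2.11 on the log2 scale (SE 0.69, unadjusted p = 0.0223, limma), which rests on Het replicates 1 and 3. Ttc8 was higher by 1.11 (SE 0.41, unadjusted p = 0.0339, limma) and Ttc21b by 1.42 (SE 0.58, unadjusted p = 0.0493, limma). All had an adjusted p of 0.779. Without WT replicate 1 the values were -1.84 for Ift22, 0.87 for Ttc8 and 0.80 for Ttc21b, and 0 of the 38 genes had an unadjusted p under 0.05, against 2.69% of all genes.

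Several further genes differed through Het replicate 1 alone. Arl6, the GTPase that brings the BBSome to membranes, was at 75.5, 139 and 106 normalized counts in WT, 1.89, 120.1 and 127 in Het and 146, 79.3 and 139 in KO mice. The value in Het replicate 1 came from 2 reads, under the limit of detection, and the other mice overlapped. Its log2 fold change of Het against WT was -1.56 (SE 1.49) with all mice and 0.25 (SE 0.32) without that mouse.

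Ift46, an IFT-B subunit that carries outer dynein arms, was at 499, 376 and 276 normalized counts in WT, 18.0, 318 and 307 in Het and 332, 412 and 414 in KO mice. Only Het replicate 1 was outside a common range. Its log2 fold change of Het against WT was -1.60 (SE 1.12) with all mice and -0.26 (SE 0.31) without that mouse.

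Traf3ip1, also known as Ift54, was at 44.6, 101 and 108 normalized counts in WT, 7.56, 123 and 119 in Het and 70.4, 111 and 84.9 in KO mice. Het replicate 1 was lowest and WT replicate 1 next. The log2 fold change of Het against WT was -0.67 (SE 1.10), and 0.61 (SE 0.45) without Het replicate 1. Spag16, a central pair gene carried by Meig1, was at 209, 633 and 509 in WT, 56.7, 519.6 and 485 in Het and 688, 354 and 579 in KO mice. The same pair of mice was lowest, and its fold change of Het against WT turned from -0.74 (SE 0.94) to 0.30 (SE 0.52) without Het replicate 1.

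Without Het replicate 1, the 1 gene of the 38 with an unadjusted p under 0.05 was Ift43, where 1.31% of all genes reached it, at a log2 fold change of 2.12 (SE 0.49, unadjusted p = 0.00751, adjusted p = 0.940, limma). With that mouse it was 0.54 (SE 1.34). The adjusted p leaves it uncalled in both.

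The highest mouse was over 5 times the lowest within a genotype for 8 of the 38 genes (21.1%), against 23.1% of the 14165 genes averaging 10 or more over all mice. The genes were Katna1 and Ift140 in WT, Arl6, Ift22, Ift43, Ift46, Spag16 and Traf3ip1 in Het, and Ift22 and Ift43 in KO mice. WT replicate 1 was the lowest WT mouse for 23 of 38 genes (60.5%, against 43.3% of all genes). KO replicate 2 was the lowest KO mouse for 22 (57.9%, against 41.3%).

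**Figure D4:**
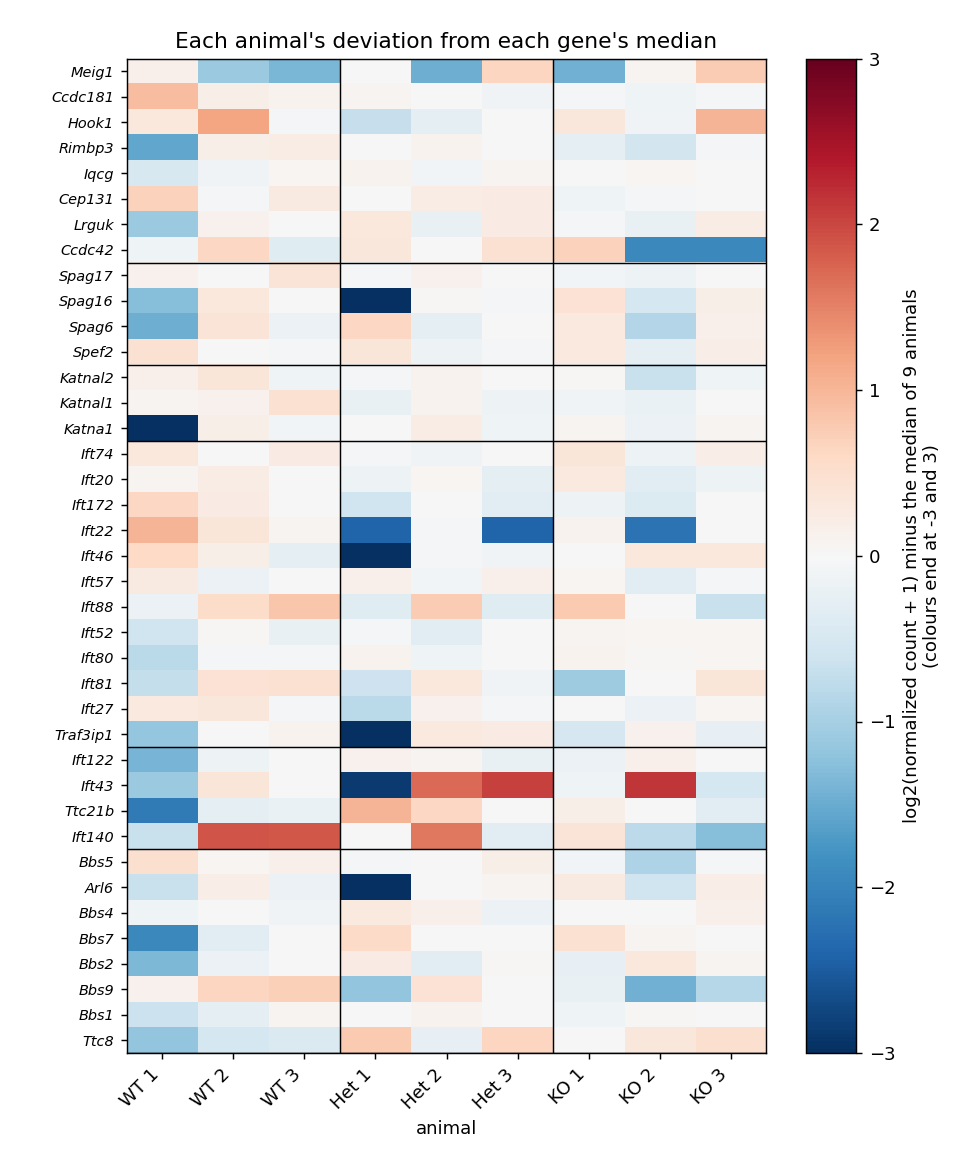
Deviation of each mouse (columns) from the median of 9 mice for each gene (rows, grouped by role), on the log2(normalized count + 1) scale, with blue below and red above the median and colours ending at -3 and 3. The darkest cells are single mice, mainly WT replicate 1 for Katna1 and Het replicate 1 for Spag16, Ift46, Traf3ip1, Ift43 and Arl6, rather than whole genotypes.

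Between KO and Het mice, which were also part of the other comparisons, 0 of the 38 genes were called by limma, DESeq2 or edgeR. Over all 14343 genes tested, limma called 0.0558% and edgeR called 7, while DESeq2 called 41 of 17578. An unadjusted p under 0.05 was reached by 0, against 3.56% of all genes, and by 1 with DESeq2 and with edgeR. That gene, Hook1, was at 768, 1390.1 and 585 normalized counts in WT, 379, 499 and 612 in Het and 781, 567 and 1246 in KO mice, where KO and Het mice overlapped. Its log2 fold change of KO against Het was 0.75 (SE 0.33, unadjusted p = 0.0621, adjusted p = 0.973, limma), and 0.45 (SE 0.28) without KO replicate 3. KO and Het mice did not overlap for 3 genes (7.89%), with Ift52 and Ift46 higher and Rimbp3 lower in KO mice, against 5.12% higher and 4.90% lower over all genes. Estimates were higher for 17 and lower for 21, with 49.7% of all genes higher. The 95% interval lay within -1 and 1 for 23 genes, more than in either comparison with WT.

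A further list of 42 genes of the same machinery, listed by function but with earlier results of these data known, held motors, IFT and BBSome genes and genes of the head-tail junction. Of these, 39 were in the table and 38 were tested. Between KO and WT mice limma called 0, with 18 estimates higher and 20 lower and a median of -0.03. An unadjusted p under 0.05 was reached by 0 higher and 8 lower genes, against 3.04% and 5.03% of all genes, and edgeR and DESeq2 gave the same 8 genes.

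Among those 8 were the outer dense fibre genes Odf1 and Odf2, Klc3, a kinesin light chain that associates with the outer dense fibres, Sun5, which anchors the head to the tail, Kif3a, the kinesin motor of IFT, Wdr60, a dynein-2 chain, and Cfap44, a tail gene. Wdr60 was at 613, 406 and 521 normalized counts in WT, 166, 397 and 132 in Het and 223, 142 and 158 in KO mice. All KO mice were below all WT mice, by -1.56 on the log2 scale (SE 0.26, adjusted p = 0.349, limma). DESeq2 called this gene at the same thresholds, where it called 109 of all 16737 genes. Odf1 was at 8067, 4700.0 and 5938 in WT, 4319, 5954 and 5444 in Het and 2882, 3118 and 4070.0 in KO mice.

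For Odf1, KO mice were below all WT and all Het mice, by -0.87 against WT (SE 0.25, adjusted p = 0.610, limma). Against WT, Het mice had 0 higher and 3 lower genes of the list at an unadjusted p under 0.05, Wdr19, Klc3 and Wdr60, against 1.46% and 1.89% of all genes. KO against Het gave 2 higher, Hook3 and Dync2h1, and 2 lower, among them Odf1, against 1.74% and 1.82% of all genes.

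The lists of spermatid markers had lower estimates in KO than in WT mice, neither past a threshold of 0.05, which 3 against 3 mice cannot reach (smallest p 0.1). The summed level of 4 elongating spermatid markers, all detected, ran from 233289 to 249362 normalized counts in WT, 179063 to 214894 in Het and 123388 to 199672 in KO mice. The mean log2 level of KO minus WT was -0.63 for this list and -0.69 for 6 round spermatid markers (exact permutation tests, two-sided, p = 0.1 each). Without KO replicate 2 the differences were -0.41 and -0.45. The summed round spermatid level ran from 8134 to 11589 in WT and from 3716 to 6144 in KO mice. In whole testis, fewer spermatids and less RNA per spermatid cannot be told apart, and the part of spermatid markers in the values above was not tested.

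For the other lists KO minus WT was 0.34 for spermatocyte, 0.13 for spermatogonia, 0.50 for Sertoli cell, 0.36 for Leydig cell, 0.36 for erythrocyte, -0.08 for macrophage, 0.70 for multiciliated duct cell and -0.32 for epididymis markers (exact permutation tests, p from 0.300 to 0.900). Of the multiciliated cell markers Mcidas was at 0 in all mice, of the epididymis markers Lcn5 and Adam7 were at 0, and of the Sertoli cell markers Amh was at 0.

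Some genes share exon bases with a neighbour, and the strand setting of the count is not given in the sources used here, so reads of such pairs cannot be assigned with certainty. The longest overlaps were Iqcg with Lrch3 on the opposite strand (2965 bases) and Spag17 with Wdr3 on the opposite strand (820 bases). Katnal1, lower in KO mice without overlap, shares 642 bases with Gm42791 on the same strand. Gm42791 has no values here, and no strand setting could separate the reads of this pair. Spag6 has a close paralog, Spag6l, and reads could be split between them; Spag6 had KO and WT means of 484 and 432, and Spag6l differed by 0.00 (SE 0.21) on the log2 scale.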

How the data were processed

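QuantSeq 3′ mRNA libraries from whole testis without the tunica albuginea were sequenced by the authors. Per the labels and the study's methods, reads were trimmed with Trim Galore 0.4.5, aligned with HISAT2 2.1 to GRCm38, assembled and counted with StringTie 1.3.3 and normalized with DESeq2, and pseudogenes were removed. The deposited signal values are whole counts per gene scaled by 1 size factor for each mouse. For each mouse, 100% of nonzero values were whole multiples of its smallest nonzero value (tolerance 0.01 of it). The whole counts recovered in this way are called reads here. The study prepared its gene counts with a script of the StringTie package, and they were not checked against sequenced reads. All 39 genes were counted on loci of the authors' merged assembly and matched to GENCODE M21 by Ensembl identifier.

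Genotypes came from the labels. Genes that reached a value of 10 in 3 or more of the mice compared were tested with limma 3.58.1 (R 4.3.3, eBayes with trend) on log2(value + 1), with Benjamini-Hochberg adjustment over all genes. Fold changes are on that scale, which understates changes of low genes. A gene was called at an adjusted p under 0.05 and a log2 fold change over 1.5, the study's thresholds. P-values measure the spread between 3 mice per genotype. The functions were tested on simulated data.

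Values per mouse are given for genes with an unadjusted p under 0.05 in any comparison, for the highest and lowest gene and the largest rise and fall in each role group, and for genes whose highest mouse exceeded 5 times the lowest within a genotype. Rimbp3, Hook1 and the other genes outside this rule were added after their values were seen. The 39 genes, the role groups, the 42 further genes and the marker lists were chosen with earlier results of these data known. Alternatives were DESeq2 1.42.0 and edgeR 4.0.16 on recovered reads, TMM factors, pseudocounts 0.5 and 5, no filter and a filter at 50, all 9 samples in 1 fit, a replicate block and each mouse left out. Leaving out WT and Het replicates 1 together was added after seeing the data. Raw reads were not used here, and Katnbl1, Cluap1 and Bbs12 were not analysed here. Some further genes of the list are counted but not reported here by name. Promoters were taken from RefSeq.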

Additional observations from a re-analysis of the deposited data

How the results depend on the processing

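Under every alternative run, 0 of the 39 genes were called in any of the 3 comparisons. The number with an unadjusted p under 0.05 was less stable. For KO against WT it was 0 with a filter at 50, which removes Bbs9 and Ttc8 from the genes tested, and 1 to 4 with 1 mouse left out (main value 2). For Het against WT (main value 3) it was 1 with edgeR, 1 without WT and Het replicates 1 together, and 0 to 5 with 1 mouse left out. For KO against Het (main value 0) it was 1 with DESeq2, 1 with edgeR and 0 to 2 with 1 mouse left out.

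Among the 42 further genes, the 8 for KO against WT became 5 with all 9 samples in 1 fit and 5 to 9 with 1 mouse left out. The 3 for Het against WT became 1 to 6 and the 4 for KO against Het 2 to 4 with 1 mouse left out. Deviations of same-numbered mice from their genotype means were weakly correlated (-0.14 to 0.188). Such values cannot show whether the numbers pair the mice. With a replicate block the counts were 1 for Het against WT and 2 for KO against Het among the 39 genes, and 5 for KO against WT and 2 for KO against Het among the further genes.

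With 1 mouse left out, the fold change ranged from -0.05 to 2.31 for Katna1 and from -0.12 to 0.67 for Spag16 (KO against WT), and from -0.44 to 0.07 for Ttc8 (KO against Het). Ranges for other KO against WT estimates were 0.09 to 1.20 for Meig1, -1.60 to -0.44 for Ift22, -0.63 to -0.22 for Ccdc181, 0.12 to 0.50 for Ift80, -0.53 to -0.17 for Katnal2, -0.34 to -0.14 for Spag17 and 0.19 to 1.15 for Ttc21b. The marker differences ranged from -0.75 to -0.41 for elongating spermatid, -0.82 to -0.45 for round spermatid, -0.11 to 0.28 for spermatogonia, -0.36 to 1.0 for Sertoli cell, -0.18 to 0.67 for erythrocyte, -0.55 to 0.38 for macrophage and -0.11 to 1.16 for multiciliated duct cell. The causes were not tested, apart from the filter. Depth limits Ccdc42, which had at most 6 reads in any mouse.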
